A study of Mus musculus with 13 samples.

Results

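The genes of the renin-angiotensin system and of the brush border peptidases were followed in nascent kidney RNA from a genetic and an injected model of iron overload. The members were taken by symbol from the table of estimated counts. They were Agt, Ren1, Ace, Agtr1a, Enpep, Mme, Anpep, Dpp4 and Mep1a, 9 of the 35013 gene rows, and all 9 passed the filter on low counts that 16468 genes passed. The 13 libraries came from kidneys of female mice, for which the methods name the strain C57Bl6. Their ages are not given in the sources used here. All mice carried Megalin3'Cre-Ert, a tamoxifen-inducible Cre meant to act in the proximal tubule, and a single floxed-stop allele of Uprt, which lets cells put 4-thiouracil into new RNA. Per the methods the mice were given tamoxifen and 4-thiouracil, and labeled RNA was captured from the kidney with avidin beads. Spns1 KO mice (n = 4) were Spns1 flox/flox, so that Cre deletes the transporter gene Spns1. The methods give the WT mice (n = 5) and the iron-overloaded FeO mice (n = 4) as Spns1 flox/+, whereas the labels call them Spns1 WT. The methods also describe the WT kidneys as those of littermates. FeO mice received 12 mg of iron on each of 3 days by injection of iron sucrose, a model the labels call dietary, and were euthanized 1 week later.

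Angiotensinogen is cleaved by renin to angiotensin I, which angiotensin-converting enzyme trims to angiotensin II, the ligand of the type 1 receptor. Membrane peptidases then shorten or inactivate the peptide. In the kidney these enzymes are densest in the brush border of the proximal tubule, where they also break down filtered peptides before their amino acids are taken up. Renin itself is made mainly by juxtaglomerular cells of the afferent arteriole.

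Libraries held 31809135 to 71296474 counts in Spns1 KO, 23068023 to 37362311 in WT and 25986133 to 29981814 in FeO. The target gene did not separate the groups, since Spns1 spanned 36.6 to 59.0 CPM in the libraries labelled Spns1 KO and 39.2 to 62.9 CPM in WT. CPM is a count brought to a common library size with TMM factors, which align the bulk of genes between libraries. The log2 fold change of Spns1 was -0.31 (SE 0.18, adjusted p = 0.226, Benjamini-Hochberg, from edgeR's quasi-likelihood test), and it was -0.54 (adjusted p = 0.0237, edgeR) once a trend on transcript length and GC content was taken out of each library. A count covers the whole gene, whereas the floxed allele loses exon 3, and "Spns1 KO" stands below for the libraries so labelled. The labels name the proximal tubule as the cell type, and all 12 of its markers were detected in every library, but markers of podocytes, endothelium, collecting duct and leukocytes were detected in every library as well.

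On the TPM scale, where counts are divided by transcript length and brought to a common total, Mep1a was the most abundant of the 9 genes in WT, at 172 ± 29.2 TPM (SD, n = 5). It was above 97.3% of the tested genes, and its range over the WT libraries did not touch that of the next gene. Agt followed at 63.6 ± 19.3 TPM, then Ren1 at 41.4 ± 12.1 and Agtr1a at 28.5 ± 4.68 TPM. The other 5 genes lay close together, from 25.0 ± 8.52 TPM for Dpp4 down to 18.3 ± 3.26 TPM for Ace. Below Mep1a, each gene's WT range overlapped that of its neighbour in this order.

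For the 7 genes that passed the limits in at least 1 comparison, the 120 bases before the RefSeq start site (GRCm38.p6) show the sequence just upstream of where transcription is annotated to begin. They are printed 5′ to 3′ on the coding strand, with the TATA motif TATAAA, searched on both strands, in capitals.
Ren1 (chr1:133350554-133350673, plus strand): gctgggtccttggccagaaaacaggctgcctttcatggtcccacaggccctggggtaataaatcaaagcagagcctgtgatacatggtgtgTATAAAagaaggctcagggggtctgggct
Ace (chr11:105967828-105967947, plus strand): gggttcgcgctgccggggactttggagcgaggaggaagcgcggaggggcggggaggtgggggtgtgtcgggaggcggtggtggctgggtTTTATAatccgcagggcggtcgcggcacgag
Enpep (chr3:129332750-129332869, minus strand): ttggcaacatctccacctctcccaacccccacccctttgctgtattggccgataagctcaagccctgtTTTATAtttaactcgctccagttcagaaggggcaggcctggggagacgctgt
Mme (chr3:63295091-63295210, plus strand): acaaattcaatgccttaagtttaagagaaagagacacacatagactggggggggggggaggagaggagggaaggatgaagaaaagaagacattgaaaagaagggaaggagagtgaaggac
Anpep (chr7:79848211-79848330, minus strand): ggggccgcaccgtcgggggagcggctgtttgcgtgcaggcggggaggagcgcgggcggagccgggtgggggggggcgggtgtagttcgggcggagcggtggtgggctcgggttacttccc
Dpp4 (chr2:62412232-62412351, minus strand): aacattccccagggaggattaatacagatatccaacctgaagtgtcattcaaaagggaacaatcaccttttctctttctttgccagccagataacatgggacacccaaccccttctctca
Mep1a (chr17:43502774-43502893, minus strand): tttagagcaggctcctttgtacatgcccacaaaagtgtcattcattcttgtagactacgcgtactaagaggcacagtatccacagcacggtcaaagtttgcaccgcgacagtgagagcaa
The motif stood in the windows of Ren1, Ace and Enpep, on the opposite strand in the latter pair, and in that of Agt, which is not shown. It was in 6.34% of the 32851 windows of all genes. The windows of Mme, Anpep, Dpp4 and Mep1a did not hold these letters, which says nothing of the factors that bind there. The GC-box letters GGGCGG, searched the same way, were found in the windows printed for Ace and Anpep and in 26.5% of all windows. They were in 4 of the 11 windows of the members, the rest being windows of Ace or Mme that are not printed. Ace has 2 RefSeq windows and Mme 3, of which the most upstream is shown, and those of Mme, Anpep and Ren1 lie inside the span that GENCODE gives the gene. The RefSeq table used here has no window for Agtr1a.

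Agt, angiotensinogen, the substrate of renin (chromosome 8, 124556534 to 124569706 on GRCm38, minus strand), was measured at 34.3, 36.9, 42.2 and 31.2 CPM in Spns1 KO 1 to 4. In WT 1 to 5 it was 77.9, 67.4, 59.1, 26.5 and 38.2 CPM, and in FeO 1 to 4 it was 83.0, 46.8, 77.3 and 32.3 CPM. The Spns1 KO libraries lay together in the lower part of the WT range, whereas WT and FeO each spread widely and all 3 groups overlapped. The log2 fold change was -0.57 in Spns1 KO (SE 0.30, adjusted p = 0.182, edgeR) and 0.15 in FeO (SE 0.30, adjusted p = 0.691, edgeR), neither past the limits. The limits for a call were an adjusted p under 0.05 over all tested genes and a log2 fold change above 0.5 or below -0.5.

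Ren1, renin (chromosome 1, 133350510 to 133360325, plus strand), was upregulated in FeO. Its level was 53.8, 52.1, 42.8 and 59.8 CPM in FeO 1 to 4, against 31.4, 31.3, 34.2, 14.1 and 33.5 CPM in WT 1 to 5. Every FeO library exceeded every WT library, and WT 4 stood far below the other WT libraries. The log2 fold change was 0.85 (SE 0.21, adjusted p = 0.00551, edgeR). It passed the limits without any single library, but with the length and GC trend removed it was 0.43 (adjusted p = 0.0741, edgeR), short of the limits. With libraries scaled to the 12 proximal tubule markers it was 0.86 (adjusted p = 0.0738, edgeR). In Spns1 KO 1 to 4 Ren1 was 36.1, 44.8, 36.6 and 31.2 CPM. Of these values 1 lay inside the WT range and 3 above it, and they gave a log2 fold change of 0.36 (SE 0.21, adjusted p = 0.229, edgeR).

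The other juxtaglomerular marker, Akr1b7, varied far more than Ren1 within every group, from 1.12 to 150.1 CPM in Spns1 KO, from 1.24 to 98.7 CPM in WT and from 1.95 to 639 CPM in FeO. Its log2 fold change in FeO was 2.28 (SE 1.5, adjusted p = 0.223, edgeR). The summed level of the 6 podocyte markers, another cell type of the glomerular region, was 296 to 665 CPM in FeO and 186 to 315 CPM in WT. Of these markers 3 were called higher and 1 lower in FeO. The 9 mesangium, pericyte and smooth muscle markers summed to 188 to 348 CPM in FeO and 195 to 266 CPM in WT. The 8 endothelium markers summed to 227 to 408 CPM in FeO and 253 to 312 CPM in WT. The part of such cells in the Ren1 result was not tested. In captured RNA from whole kidney, a change in the number of cells of a type cannot be told apart from a change in RNA per cell. Some mouse strains also carry a near-identical further renin gene that the reference genome lacks, and its reads would be counted as Ren1. The methods name C57Bl6 mice, and the renin genes that these mice carry were not examined.

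Ace, angiotensin-converting enzyme (chromosome 11, 105967945 to 105989964, plus strand), was upregulated in Spns1 KO relative to both WT and FeO. It was measured at 109.9, 73.4, 75.8 and 86.9 CPM in Spns1 KO 1 to 4. In WT 1 to 5 it was 40.2, 39.7, 44.9, 34.9 and 33.4 CPM, and in FeO 1 to 4 it was 15.5, 27.9, 30.1 and 40.3 CPM. All Spns1 KO libraries lay above all others, and FeO reached from below the WT range into it. The mean in Spns1 KO was 2.24 times that in WT, with a log2 fold change of 1.16 (SE 0.21, adjusted p = 0.0019, edgeR). Against FeO the log2 fold change was 1.60 (SE 0.23, adjusted p = 0.00182, edgeR). Both calls held without any single library. FeO differed from WT by -0.44 (SE 0.22, adjusted p = 0.108, edgeR), which became a call without FeO 4, at -0.63 (adjusted p = 0.027, edgeR). An antisense gene, Gm11651, overlaps Ace and shares 4.5% of the 31-base words of its transcripts, so a small share of its counts is uncertain.

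Agtr1a, the main type 1 angiotensin II receptor of the mouse kidney (chromosome 13, 30336441 to 30382867, plus strand), had group means between 27.1 and 33.2 CPM and was not called in any comparison. Spns1 KO 1 to 4 held 30.2, 26.9, 34.4 and 25.5 CPM and WT 1 to 5 held 28.8, 27.1, 21.5, 27.0 and 31.1 CPM. FeO 1 to 4 held 30.4, 37.0, 44.1 and 21.2 CPM, and all groups overlapped. The fitted log2 difference from WT was 0.11 in Spns1 KO (SE 0.19, adjusted p = 0.692, edgeR) and 0.29 in FeO (SE 0.19, adjusted p = 0.215, edgeR). Agtr1b, the paralogous type 1 receptor, had 0 to 27 counts per library and Mas1, the receptor of angiotensin-(1-7), had 1 to 13, and neither passed the filter on low counts. Of the 31-base words of Agtr1a, 3.68% are shared with other genes, Agtr1b among them.

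Enpep, aminopeptidase A, which removes the first residue of angiotensin II (chromosome 3, 129269175 to 129332720, minus strand), was upregulated in Spns1 KO. Its level was 95.6, 86.7, 84.3 and 53.3 CPM in Spns1 KO 1 to 4. WT 1 to 5 held 41.7, 41.6, 37.5, 46.0 and 25.5 CPM, and FeO 1 to 4 held 43.6, 33.6, 43.9 and 42.6 CPM. Spns1 KO lay above both other groups in every library, with Spns1 KO 4 closest to them, while WT and FeO overlapped. Spns1 KO was higher on the log2 scale by 1.06 against WT (SE 0.19, adjusted p = 0.00157, edgeR) and 0.97 against FeO (SE 0.20, adjusted p = 0.00835, edgeR), and both calls held without any single library. FeO differed from WT by 0.09 (SE 0.19, adjusted p = 0.717, edgeR).

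Mme, neprilysin, an endopeptidase that cleaves angiotensins, natriuretic peptides and bradykinin (chromosome 3, 63241537 to 63386030, plus strand), was also upregulated in Spns1 KO. It was measured at 150.8, 108.0, 105.0 and 107.6 CPM in Spns1 KO 1 to 4. Values of WT 1 to 5 were 59.1, 60.8, 69.5, 91.2 and 44.2 CPM, and those of FeO 1 to 4 were 55.3, 32.3, 61.9 and 82.7 CPM. Spns1 KO did not overlap the other groups, and Spns1 KO 1 stood apart from the other 3 Spns1 KO libraries. The log2 fold change was 0.86 against WT (SE 0.24, adjusted p = 0.0197, edgeR) and 1.02 against FeO (SE 0.26, adjusted p = 0.0181, edgeR). Without Spns1 KO 1 they were 0.72 and 0.88, and neither passed the limits. Between FeO and WT the direction turned with the processing, from -0.16 (adjusted p = 0.602, edgeR) to 0.61 (adjusted p = 0.0384, edgeR) with the length and GC trend removed. Mme has the longest transcript of the 9 genes, at 8039 bases.

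Anpep, aminopeptidase N, which trims angiotensin III and many other peptides (chromosome 7, 79821803 to 79861059, minus strand), was measured at 83.5, 71.1, 66.0 and 47.4 CPM in Spns1 KO 1 to 4. WT 1 to 5 held 36.3, 37.0, 29.7, 36.9 and 26.1 CPM, and FeO 1 to 4 held 30.9, 46.2, 100.3 and 36.4 CPM. Spns1 KO lay above WT throughout, whereas FeO 3 held the highest value of all libraries and the other FeO libraries lay near or in the WT range. In Spns1 KO against WT Anpep was upregulated, with a log2 fold change of 1.01 (SE 0.28, adjusted p = 0.0188, edgeR). The call was lost without Spns1 KO 1 and without Spns1 KO 2 (0.89 and 0.98). In FeO the log2 fold change was 0.68 (SE 0.28, adjusted p = 0.0588, edgeR), and without FeO 3 it was 0.19. It passed the limits with the trend removed, at 0.84 (adjusted p = 0.0441, edgeR). Spns1 KO and FeO differed by 0.33 (SE 0.30, adjusted p = 0.468, edgeR), or by 0.83 (adjusted p = 0.0255, edgeR) without FeO 3.

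Dpp4, dipeptidyl peptidase 4, which removes dipeptides from incretins and other peptides (chromosome 2, 62330073 to 62412231, minus strand), was upregulated in Spns1 KO, close to the limit on the fold change. Its level was 97.5, 81.8, 88.1 and 71.7 CPM in Spns1 KO 1 to 4, whereas WT 1 to 5 held 57.0, 54.8, 57.6, 74.7 and 37.0 CPM. FeO 1 to 4 held 46.4, 46.0, 59.4 and 48.9 CPM. Spns1 KO overlapped WT through a single pair, since WT 4 exceeded Spns1 KO 4, and did not overlap FeO. It was higher on the log2 scale by 0.59 against WT (SE 0.17, adjusted p = 0.0243, edgeR) and 0.76 against FeO (SE 0.19, adjusted p = 0.0156, edgeR). The call against WT was lost without each of 5 libraries (Spns1 KO 1, 2 and 3, WT 2 and WT 5), where the value ranged from 0.49 to 0.61. The call against FeO was lost without Spns1 KO 1 (0.68, adjusted p = 0.0502, edgeR). With library totals alone the value against WT was 0.47, short of the limits. FeO differed from WT by -0.16 (SE 0.18, adjusted p = 0.457, edgeR).

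Mep1a, meprin A subunit alpha, an abundant metalloendopeptidase of the mouse brush border (chromosome 17, 43474324 to 43502812, minus strand), was upregulated in Spns1 KO. It was measured at 461.8, 386.7, 387.4 and 333.0 CPM in Spns1 KO 1 to 4. In WT 1 to 5 it was 246.9, 237.9, 239.7, 202.9 and 162.5 CPM, and in FeO 1 to 4 it was 172.0, 212.6, 314.3 and 238.1 CPM. Spns1 KO did not overlap the other groups, and FeO 3 was the closest library to it. It was higher on the log2 scale by 0.85 against WT (SE 0.19, adjusted p = 0.006, edgeR) and 0.74 against FeO (SE 0.20, adjusted p = 0.0247, edgeR). The call against WT held without any single library, and the call against FeO was lost without Spns1 KO 1, Spns1 KO 2 or FeO 1 (0.62 to 0.75). FeO differed from WT by 0.10 (SE 0.19, adjusted p = 0.671, edgeR).

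**Figure D1:**
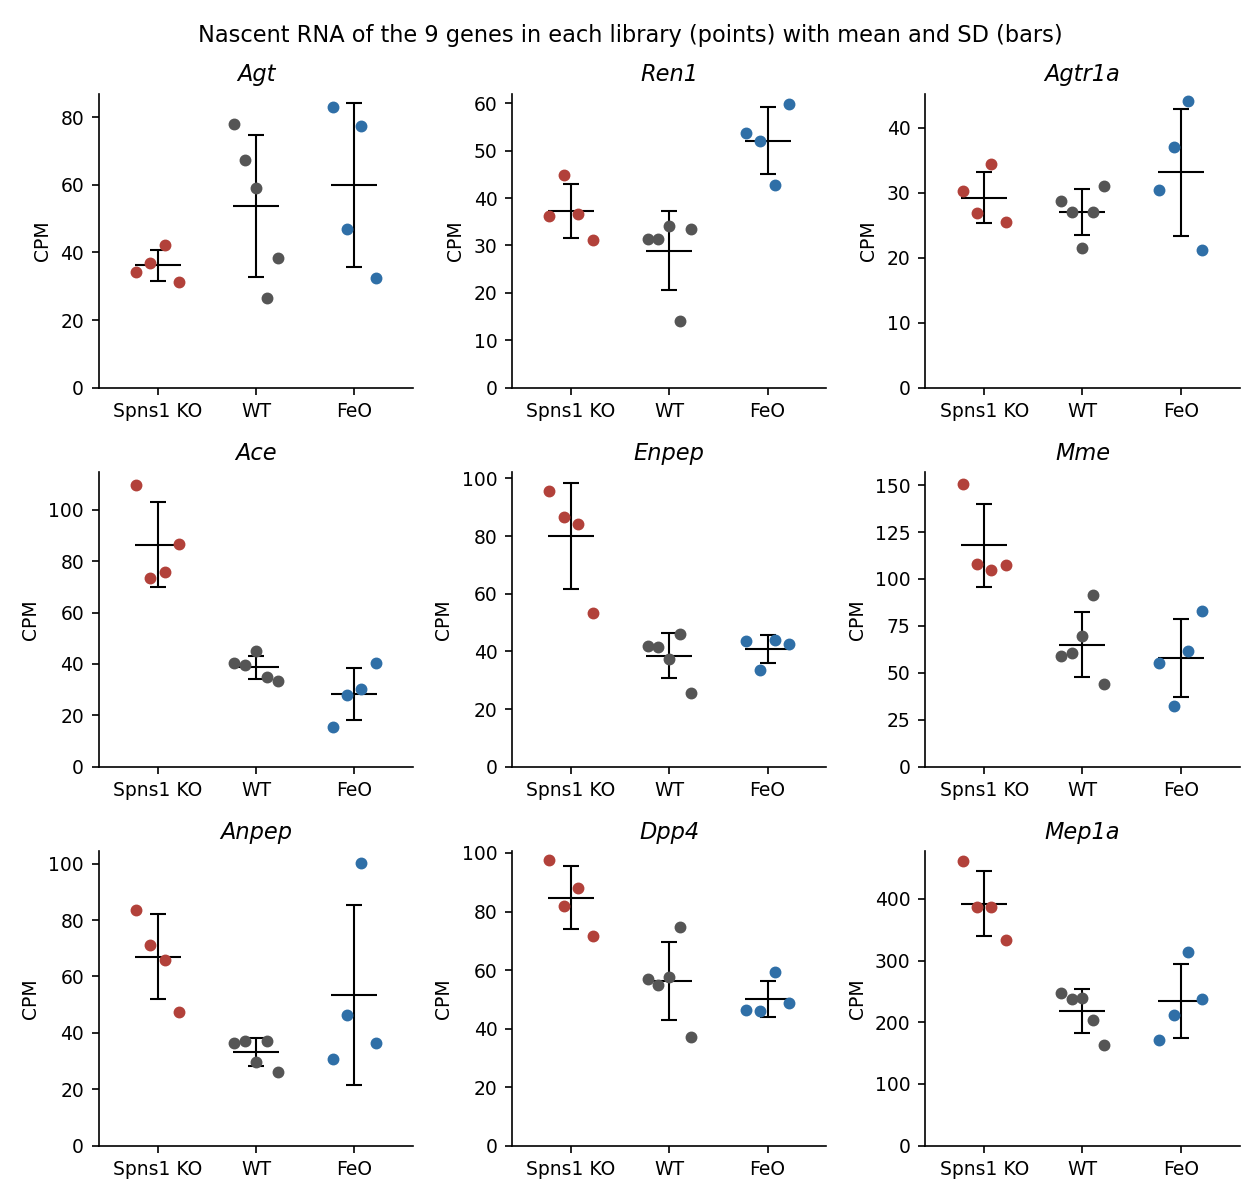
CPM of each gene (vertical axes, from 0) in every library, by group. Points are libraries in order of replicate number and bars are mean and SD. Ace, Enpep, Mme, Anpep, Dpp4 and Mep1a are high in Spns1 KO, Ren1 is high in FeO, and the Anpep point of FeO 3 stands at 100.3 CPM.

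Across the pathway, all 6 peptidase genes, Ace included, passed the limits upward in Spns1 KO against WT, and 5 of the 6 did not overlap WT in CPM. The median log2 fold change of the 6 was 0.94. Of all tested genes, 21.6% were called, 14.0% higher and 7.55% lower. In every library 13.1% lay above WT and 9.38% below it, and the median log2 fold change of all tested genes was -0.05. Agt, Ren1 and Agtr1a were not called in that comparison. In FeO against WT, 1 of the 9 members was called, Ren1, which was also the single member with no overlap. There 42.2% of tested genes were called, 22.4% higher and 19.7% lower, and in every library 16.9% lay above WT and 16.4% below it. The 6 peptidases had a median of -0.04 in that comparison, against -0.01 over all tested genes. Spns1 KO and FeO were compared directly as well, and 5 of the 6 peptidases were higher in Spns1 KO and did not overlap FeO. In that comparison 14.9% of tested genes were called, 6.76% higher and 8.10% lower, and in every library 8.25% lay above FeO and 9.10% below it, with a median log2 difference of 0.86 for the 6 peptidases and 0.03 for all tested genes. The comparisons of each model with WT share their WT libraries. All overlaps given here are those of CPM. On the TPM scale Spns1 KO stayed above WT for Ace (26.6 to 40.7 against 15.8 to 23.5 TPM). It overlapped WT on that scale for Enpep, Mme, Anpep, Dpp4 and Mep1a, and overlapped FeO for Enpep and Anpep. Ren1 in FeO, at 38.1 to 75.8 TPM, overlapped WT, at 24.0 to 55.2 TPM.

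**Figure D2:**
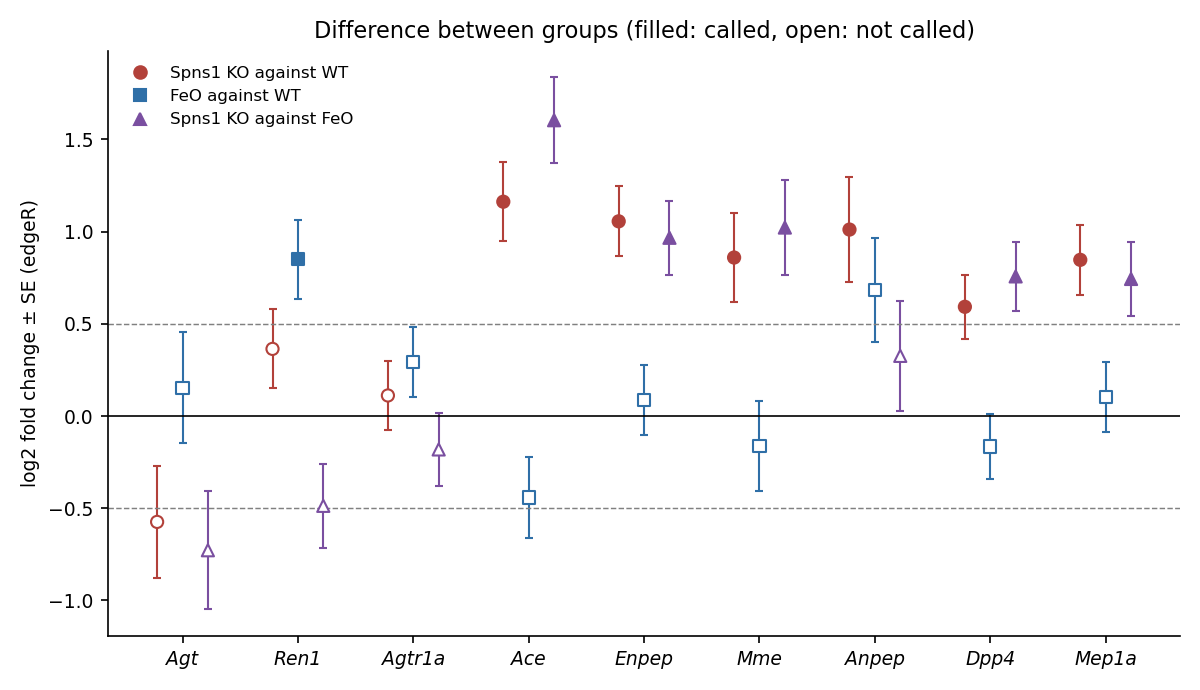
Log2 fold change with standard error (vertical axis, edgeR) of each gene in the 3 comparisons. Filled symbols passed the limits, open symbols did not, and dashed lines mark 0.5 in either direction. The peptidases from Ace to Mep1a are filled for Spns1 KO against WT, and Ren1 is the filled symbol for FeO against WT.

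Several libraries stood at the same end of their group across the 6 peptidases. Spns1 KO 1, also the deepest library, was the highest of its group for 6 of 6, and Spns1 KO 4 was the lowest for 4. WT 5, the shallowest library, was the lowest of its group for 6 of 6. FeO 3 was the highest FeO library for 4 of 6, and FeO 1 and FeO 2 were each the lowest for 3. Summed over the 6 genes, the level was 700.0 to 999 CPM in Spns1 KO, 329 to 487 CPM in WT and 364 to 610 CPM in FeO.

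Markers of the proximal tubule as a whole rose with the peptidases. Of 12 such markers, 9 passed the limits upward in Spns1 KO against WT, with a median log2 fold change of 0.96. They included the endocytic receptors Lrp2 (0.75, SE 0.20, adjusted p = 0.0165, edgeR) and Cubn (1.02, SE 0.22, adjusted p = 0.00519, edgeR). The summed level of the 12 was 8163 to 9654 CPM in Spns1 KO, 3727 to 5113 CPM in WT and 2652 to 6387 CPM in FeO. Some other summed markers also lay above WT in every Spns1 KO library. These were endothelium (341 to 390 against 253 to 312 CPM), leukocytes (75.9 to 95.2 against 54.4 to 64.7) and tubule injury (1101 to 1456 against 508 to 678). Sums for podocytes, mesangium and smooth muscle, loop of Henle, distal tubule, collecting duct and hepatocytes overlapped WT. Of the 12 proximal tubule markers, FeO against WT gave 2 that were called higher and 1 called lower. When the libraries were scaled to the mean of these 12 markers instead, an alternative chosen after the data were seen, the log2 fold changes of the 6 peptidases in Spns1 KO against WT ranged from -0.50 for Dpp4 to 0.04 for Ace and none was called. That scaling shifted the median of all tested genes to -1.15. Against FeO, Ace was 0.62 (SE 0.31, adjusted p = 0.0844, edgeR) on that scale and the other 5 peptidases lay between -0.63 and -0.13, none past the limits. Under it Agt (-1.68, adjusted p = 0.00128, edgeR) and Agtr1a (-1.02, adjusted p = 0.00863, edgeR) were called lower in Spns1 KO than in WT. So were most tested genes, with 11181 of 16468 called lower and 85 higher, and Agtr1a lay slightly above their median. The peptidases thus differed from WT relative to the bulk of genes, and no difference relative to the proximal tubule markers passed the limits.

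**Figure D3:**
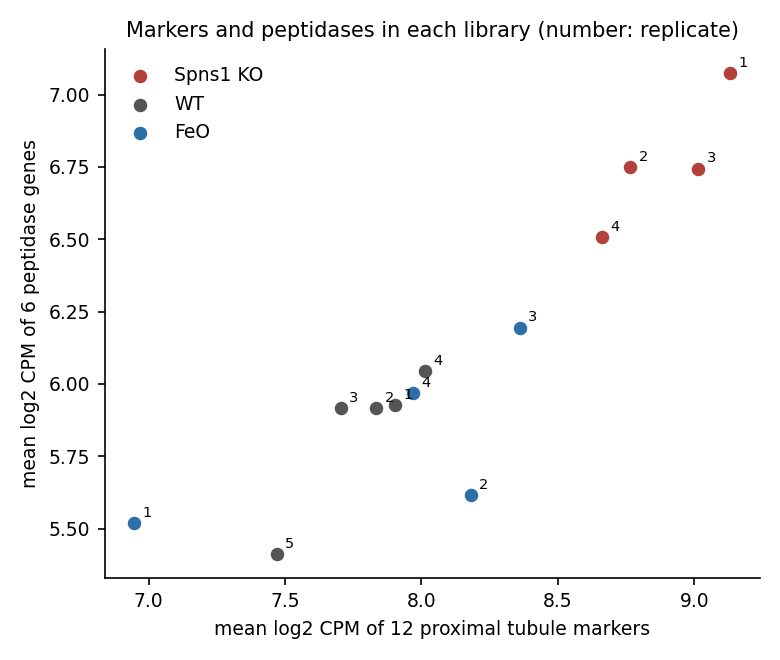
Mean log2 CPM of the 6 peptidase genes (vertical axis) against that of the 12 proximal tubule markers (horizontal axis), with 1 point per library and its replicate number beside it. The Spns1 KO libraries are highest on both axes, and FeO 1 and WT 5 are lowest on the horizontal axis. The points share library depth and scaling.

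**Figure D4:**
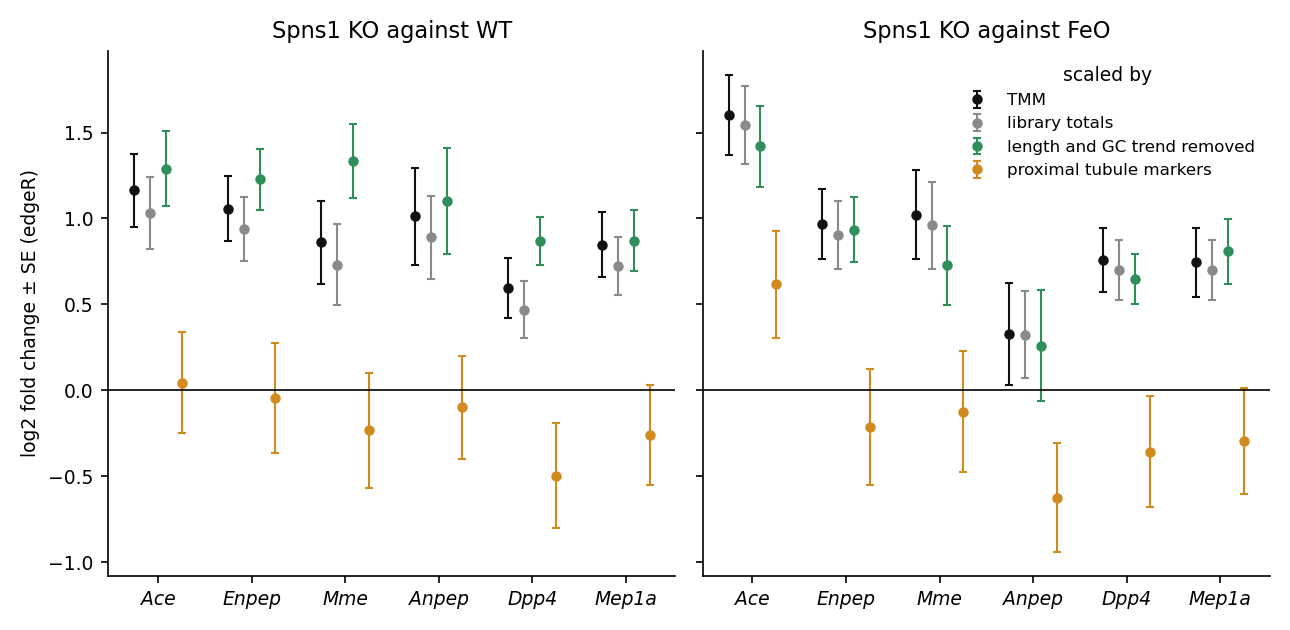
Log2 fold change with standard error (vertical axis, edgeR) of the 6 peptidase genes in Spns1 KO against WT (left) and against FeO (right) under 4 scalings. The values stay above 0 with TMM factors, with library totals and with the length and GC trend removed. Scaled to the proximal tubule markers they lie between -0.50 and 0.04 against WT.

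Markers of the early proximal tubule (S1) differed between the models. All 5 S1 markers had positive log2 fold changes in Spns1 KO against WT, with a median of 0.44. Of these 1, the glucose transporter Slc5a2, passed the limits (1.28, SE 0.38, adjusted p = 0.0251, edgeR). After removal of the length and GC trend Slc5a2 was not called (1.13, adjusted p = 0.0503, edgeR). On that setting 2 of the 5 markers were called higher, and the median was 0.69. Against WT, 2 of the 5 were called lower in FeO, and in Spns1 KO against FeO 4 of the 5 were called higher. The summed S1 level was 3960 to 4701 CPM in Spns1 KO, 1907 to 3026 CPM in WT and 661 to 2761 CPM in FeO. Of 7 markers of the late segment (S3), 2 were called higher in Spns1 KO against WT and 3 in FeO against WT. Among all tested genes 14.0% and 22.4% were called higher in these comparisons. The S1 marker level moved with the difference between Spns1 KO and FeO, and its part in the peptidase result was not tested.

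Transcript length moved with the groups as well. The slope of log2 CPM on log2 transcript length, relative to the mean of all libraries, was 0.09 to 0.37 in WT, -0.17 to 0.07 in Spns1 KO and -0.26 to -0.11 in FeO. Once each library's trend on length and GC content was taken out, the 6 peptidases had log2 fold changes of 0.87 to 1.33 in Spns1 KO against WT, and all 6 were called.

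Of the wider renin-angiotensin list of 27 genes, 14 of the 20 that are not members were tested. In Spns1 KO against WT 5 of the 14 were called higher and 1 lower, and in FeO against WT 4 were called higher and 2 lower. With the length and GC trend removed, 5 and 4 were called higher and 0 lower. The shares over all tested genes were 14.0% higher and 7.55% lower in Spns1 KO against WT. They were 22.4% and 19.7% in FeO against WT. The largest increases in Spns1 KO were those of Klk1, tissue kallikrein, at 2.06 (SE 0.37, adjusted p = 0.00161, edgeR), and of Cltrn, collectrin, which carries amino acid transporters to the apical membrane. The counts of Klk1 are uncertain, since 40.5% of its 31-base words are shared with other genes, chiefly paralogous kallikreins. Cltrn was 418 to 635 CPM in Spns1 KO, 77.3 to 172.7 CPM in WT and 77.1 to 246.5 CPM in FeO. The log2 fold change of Cltrn was 2.04 in Spns1 KO (SE 0.32, adjusted p = 0.000782, edgeR), and 0.01 in FeO (SE 0.32, adjusted p = 0.974, edgeR). Atp6ap2, the prorenin receptor and a subunit of the vacuolar proton pump, was upregulated in Spns1 KO (0.79, SE 0.20, adjusted p = 0.012, edgeR). Ctsd, cathepsin D, a lysosomal aspartic protease related to renin, was higher than in WT by 0.87 in Spns1 KO (adjusted p = 0.0186, edgeR) and by 1.38 in FeO (adjusted p = 0.000721, edgeR). After removal of the length and GC trend, Ctsd in Spns1 KO was no longer called (0.63, adjusted p = 0.0786, edgeR). Of its 31-base words, 33.2% are shared with an overlapping gene model on the same strand, so its counts are uncertain. Lnpep, the insulin-regulated aminopeptidase that binds angiotensin IV, was called lower in FeO, at -1.45 (SE 0.38, adjusted p = 0.00688, edgeR), with WT values spread from 28.5 to 160.4 CPM. With the length and GC trend removed Lnpep was -0.50 in FeO (adjusted p = 0.169, edgeR) and was not called.

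Of the 23 tested membrane peptidases that are not members, 6 were called higher and 1 lower in Spns1 KO against WT, with a median log2 fold change of 0.31. FeO against WT gave 2 that were higher and 4 that were lower, with a median of -0.26. After removal of the length and GC trend 3 were called higher and 1 lower in FeO, and 7 higher and 1 lower in Spns1 KO. For comparison, before that removal 14.0% of all tested genes were called higher and 7.55% lower in Spns1 KO against WT. In FeO against WT these shares were 22.4% and 19.7%. After it, 1587 of the 16468 tested genes were called higher and 937 lower in Spns1 KO, and 2829 and 2461 in FeO. Dpep1, a renal dipeptidase of the brush border, was 46.7 to 61.9 CPM in Spns1 KO and 19.1 to 22.7 CPM in WT (log2 fold change 1.42, SE 0.23, adjusted p = 0.000865, edgeR). It was 13.2 to 37.2 CPM in FeO, where the log2 fold change was 0.12 (adjusted p = 0.694, edgeR). Xpnpep2, an aminopeptidase that cleaves before proline, was upregulated in Spns1 KO by 1.28 (adjusted p = 0.00192, edgeR) at a low mean level of 8.52 CPM, and Folh1, a glutamate carboxypeptidase, by 0.86 (adjusted p = 0.0157, edgeR). Mep1b, the beta subunit of meprin, passed the limits in both models, at 1.40 in Spns1 KO (SE 0.22, adjusted p = 0.000816, edgeR) and 1.01 in FeO (SE 0.22, adjusted p = 0.00258, edgeR), and the models differed by 0.39 (adjusted p = 0.264, edgeR). Ggt1, gamma-glutamyltransferase, was not called in either model, at 0.42 (adjusted p = 0.209, edgeR) and -0.12 (adjusted p = 0.698, edgeR).

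The genes whose log2 CPM followed each member most closely over the 13 libraries were found among 12207 genes whose mean reached 100 counts. For Ace they were F13b, Prodh2 and Nox4, with Pearson r from 0.95 to 0.97, and for Enpep Mfsd1, Smpdl3a and Fuca2, from 0.96 to 0.97. Mme was nearest to Mmut, Slc17a5 and Lrpprc, with r from 0.92 to 0.95, and Anpep to Tpmt, Slc17a1 and Slc13a3, from 0.96 to 0.97. Dpp4 was nearest to Lrrc19, Steap2 and Aldh5a1, all at 0.97, and Mep1a to Fggy and Renbp, at 0.97 and 0.96. The nearest genes were Nxt1, Fam241b and Plekhj1 for Ren1 (0.89 to 0.93), Slc37a4, Slc46a3 and Prkcz for Agtr1a (0.89 to 0.90) and Arntl, Ezr and Akr1cl for Agt (0.81 to 0.83). These values describe the libraries, whose depth and scaling all genes share, and Slc13a3 is itself among the proximal tubule markers.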

How the data were processed

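The authors deposited estimated counts by gene symbol and library, whole numbers without normalization, and were used as deposited. Per the labels the processing tools were bcl2fastq 2.19, kallisto 0.44.0 and DESeq2 on GRCm38, whereas the study's methods describe alignment with STAR and counting with HTSeq. Counts were tested in R 4.3.3 with edgeR 4.0.16: filterByExpr, TMM factors, and the quasi-likelihood test (glmQLFit and glmQLFTest) in a single fit of all 13 libraries without covariates, with Benjamini-Hochberg adjustment over 16468 genes and the study's limits (adjusted p under 0.05 and a log2 fold change beyond 0.5). The procedure was tested on simulated data. Depth was 23068023 counts or more per library. The closest libraries, WT 1 and WT 2, differed by 2.72 times counting noise and were kept as separate replicates. The labels do not say that libraries of a group come from separate animals, so p-values measure the spread between libraries. Transcript lengths, GC content, gene positions and shared 31-base words came from GENCODE vM21 on GRCm38 and promoters from RefSeq. The length and GC trend was fitted per library with mgcv 1.9.3 on the 98.29% of tested genes with both values. Named genes were the 9 members, a set of 9 relatives given whatever their values, up to 3 called genes per list and comparison with a mean of at least 100 counts, the 3 nearest genes of each member, and genes that check the labels or markers. Some planned values are not reported here. Members and lists were chosen with earlier results of these data known, so their counts are descriptions. Alternatives were DESeq2 1.42.0, limma 3.58.1 (voom), glmTreat, other scalings, no filter, a replicate block, separate fits and leaving out each library.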

Additional observations from a re-analysis of the deposited data

Results flagged for a closer look

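Within groups of 4 or 5 libraries, a library was singled out when its gap to the nearest other library was too large a share of the group's range (Dixon's criterion at 95%). Of 27 groups tested this marked 3, where chance marks about 1 in 20. They were Ren1 in WT 4 (14.1 CPM), Enpep in FeO 2 (33.6 CPM) and Mme in Spns1 KO 1 (150.8 CPM). Without WT 4 the log2 fold change of Ren1 in FeO was 0.69 and was still called.

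The effect of the genetic model differed from that of injected iron, by the direct test of Spns1 KO against FeO, for 5 members. On the log2 scale these differences were 1.60 for Ace, 0.97 for Enpep, 1.02 for Mme, 0.76 for Dpp4 and 0.74 for Mep1a. The summed level of the proximal tubule markers, 8163 to 9654 CPM in Spns1 KO and 2652 to 6387 CPM in FeO, moved with these differences, and with libraries scaled to those markers none of the 5 genes was called.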

How the results depend on the processing

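Over the 27 log2 fold changes of the members, 584 of 648 alternative values kept direction and side of the limits, 30 lost the call, 12 gained it and 22 changed sign. Of all tested genes, 3550, 6943 and 2447 were called in Spns1 KO against WT, FeO against WT and Spns1 KO against FeO, and 6, 1 and 5 members. Testing against the fold limit itself (glmTreat) left 929, 3119 and 343 genes and 2, 0 and 1 members. Scaling to the proximal tubule markers, chosen after seeing the data, gave 11266, 3677 and 10284 genes and 2, 0 and 3 members. Those members were Agt and Agtr1a against WT, and Agt, Ren1 and Agtr1a against FeO, all lower in Spns1 KO. The main fit had called none of them in these comparisons, and no peptidase call was kept. Of all tested genes, that scaling called 11181 lower in Spns1 KO than in WT and 10204 lower than in FeO. Separate fits of the groups gave 1040 genes in Spns1 KO against FeO, with fewer samples in the fit. For FeO against WT, DESeq2, no filter on low counts and the removed trend each called 2 members. Leaving out single libraries gave 2035 to 5680 genes and 3 (without Spns1 KO 1) to 6 members in Spns1 KO against WT. For FeO against WT it gave 5627 to 7473 genes and 1 to 3 members (3 without FeO 4), and in Spns1 KO against FeO 1181 to 3087 genes and 2 (without Spns1 KO 1) to 6 members. With library totals alone the share of called genes that were higher moved from 65% to 45.5% in Spns1 KO against WT and from 45.5% to 33.9% in Spns1 KO against FeO, and the median of all genes moved to -0.18 and -0.04.

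Signs changed in Spns1 KO against WT for Agtr1a with library totals (-0.022) and, scaled to the markers, for Ren1 (-0.78), Agtr1a (-1.02), Enpep (-0.046), Mme (-0.23), Anpep (-0.10), Dpp4 (-0.50) and Mep1a (-0.26). In Spns1 KO against FeO that scaling gave -0.21 for Enpep, -0.13 for Mme, -0.63 for Anpep, -0.36 for Dpp4 and -0.30 for Mep1a. For FeO against WT the removed trend gave -0.13 for Agt, 0.61 for Mme and 0.22 for Dpp4. Leaving out libraries there gave -0.023 to 0.39 for Agt, -0.0083 to 0.19 for Enpep, -0.36 to 0.052 for Mme and -0.070 to 0.25 for Mep1a. The cause was not tested. A fit with the replicate number as a block called 4 members in Spns1 KO against WT, with Anpep at 0.90 (adjusted p = 0.0589, edgeR) and Dpp4 at 0.48 (adjusted p = 0.0694, edgeR) lost, and gave -0.033 for Enpep in FeO against WT. It changed no other member's call. The numbers did not pair the libraries: over 12 same-numbered pairs the correlation of deviations from the group means was -0.30 to 0.26, over 0.1 in 4. Each library was also checked against each other group holding its number. In 3 of these 24 checks the best match was the library of the same number. With 23068023 counts or more per library, each member had at least 400 counts, so counting error was small beside the spread between libraries.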

Other observations

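Of 29 cytosolic and lysosomal peptidases, 10 were called higher and 1 lower in Spns1 KO against WT, with a median log2 fold change of 0.26, and 7 were called higher and 1 lower in FeO against WT, also with a median of 0.26. With the length and GC trend removed, 5 were called higher in Spns1 KO and 7 in FeO. Before that removal, 14.0% of all tested genes were called higher and 7.55% lower in Spns1 KO against WT. For FeO against WT the shares were 22.4% and 19.7%. Cpq, a lysosomal carboxypeptidase, was called higher in both, at 1.47 in Spns1 KO (SE 0.20, adjusted p = 0.000402, edgeR) and 0.99 in FeO (SE 0.20, adjusted p = 0.00142, edgeR). Ctsa, cathepsin A, passed in Spns1 KO (1.25, adjusted p = 0.000513, edgeR), and its difference between Spns1 KO and FeO also passed (0.84, adjusted p = 0.0115, edgeR). Dpp7 and Tpp1, both lysosomal, were higher in Spns1 KO than in FeO, by 1.40 (adjusted p = 0.00479, edgeR) and 0.82 (adjusted p = 0.00591, edgeR). Lap3, leucine aminopeptidase, was called higher in both models, and Acy3, an aminoacylase, in FeO (0.99, adjusted p = 0.0199, edgeR). Acy1, the other aminoacylase on the list, was called higher in Spns1 KO (1.40, adjusted p = 0.0147, edgeR). With the trend removed, Acy3 in FeO (0.53, adjusted p = 0.17, edgeR), Lap3 in Spns1 KO (0.56, adjusted p = 0.0639, edgeR) and Acy1 in Spns1 KO (1.00, adjusted p = 0.0620, edgeR) were no longer called.

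Of 15 transporters that take up the released peptides and amino acids, 6 were called higher and 1 lower in Spns1 KO against WT. In FeO against WT 2 were called higher and 3 lower. With the length and GC trend removed, 3 were called higher and 1 lower in FeO, and 6 and 1 in Spns1 KO. Across all tested genes 14.0% were called higher and 7.55% lower in Spns1 KO before that removal, and 22.4% and 19.7% in FeO. After it, 1587 of the 16468 tested genes were called higher and 937 lower in Spns1 KO, and 2829 and 2461 in FeO. Slc7a7, Slc6a20b and Slc7a8 had the largest increases in Spns1 KO, at 1.28, 1.17 and 0.88 (adjusted p = 0.00778, 0.0129 and 0.0198, edgeR). Slc7a8, a light chain of neutral amino acid exchange, was -0.75 in FeO (adjusted p = 0.0257, edgeR), though not called after removal of the length and GC trend (-0.57, adjusted p = 0.0968, edgeR), and showed a difference between Spns1 KO and FeO of 1.63 (SE 0.27, adjusted p = 0.00324, edgeR). Slc15a2, the high-affinity peptide transporter, was called higher in FeO (1.41, adjusted p = 0.00212, edgeR) and was 0.66 in Spns1 KO (adjusted p = 0.123, edgeR). Slc1a1, a glutamate transporter, was called higher in both models. The counts of Slc6a20b and Slc1a1 are uncertain, since 31.5% of the 31-base words of each are shared with other genes. Slc7a9, a cystine transporter subunit, was higher in Spns1 KO than in FeO by 1.10 (adjusted p = 0.0114, edgeR).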
